A study of Bos taurus with 12 samples.

Results

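The genes described here are 37 genes of apoptosis and the p53 response, taken by symbol from a count table of 32637 genes in expanded bovine blastocysts. All 37 symbols were in the table and all 37 matched the RefSeq annotation of ARS-UCD2.0. RNA-seq libraries came from 6 pools of female and 5 pools of male embryos, and each pool held 2 half-cut embryos of one sex. The embryos were produced in vitro from slaughterhouse oocytes and cryopreserved semen of a pair of bulls used in rotation, with no treatment in either group, and were taken at the expanded stage, on Day 7 or Day 8, and sexed by PCR on the portion of each embryo not used for RNA. Because a replicate mixes 2 embryos, variation between embryos within a pool was not seen, and inner cell mass, trophectoderm and hypoblast were measured together. In such bulk samples, fewer cells of a type and less RNA per cell cannot be told apart.

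Cells die by apoptosis along a pair of routes that meet at the caspases, the proteases that dismantle the cell. In the mitochondrial route, BH3-only proteins sense stress and either neutralize the BCL2-like guardians or activate the pore formers BAX and BAK1. The released cytochrome c lets APAF1 build the apoptosome that activates caspase-9. In the death receptor route, receptors such as FAS recruit FADD and caspase-8. The transcription factor p53 and its relatives TP63 and TP73 turn on several of these genes together with genes that arrest the cell cycle, and MDM2 and MDM4 hold p53 down. Blastocysts lose some cells to apoptosis in normal development, in the inner cell mass in particular, and in vitro culture is a known stress for them.

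Total counts were 6664112 to 16162985 per female library and 9942952 to 21392764 per male library. Levels are given as CPM, counts relative to the size of the library, scaled with TMM factors, and counts were not divided by transcript length, so levels were compared between libraries and never between genes. Of the sex-chromosome checks, XIST lay between 52.3 and 261 CPM in females and between 0.745 and 3.97 CPM in males, and ZFY had 0 counts in every female. The Y-linked USP9Y, DDX3Y and EIF1AY reached at most 1.22, 1.89 and 0.073 CPM in females. In males they measured at least 18.9, 31.9 and 4.33 CPM. Of the inner cell mass markers, 6 of 7 were in the table, with a sum of 560 to 980 CPM in females and 792 to 1076 CPM in males. The 10 trophectoderm markers summed to 7879 to 23154 CPM in females and 9195 to 36145 CPM in males, and the 7 hypoblast markers to 228 to 621 and 208 to 467 CPM, with FOXA2 at 0 in 6 or more libraries. The 7 cumulus markers summed to 5.38 to 32.7 CPM over all libraries, and INHA, AMH and FOXL2 were at 0 in 6 or more. No marker of these 4 cell types was called different between the sexes, against 1.91% of all genes. Those tested were 6 of the inner cell mass, 10 of the trophectoderm, 5 of the hypoblast and 3 of the cumulus markers. So few genes cannot show that the mix of cells was equal.

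One library stood apart and is named wherever a result rests on it. Male replicate 5 had the highest total count, 21392764, but the fewest genes with a count, 14937 against 16985 to 18550 in the other 10 libraries. It also had the highest sum of trophectoderm markers, 36145 CPM, of which KRT8 made up 20143 CPM against 2285 to 7314 CPM in the others. Of the 10 trophectoderm markers, CDX2, KRT8, KRT18 and DAB2 lay above their range in the other 10 libraries and the remaining 6 lay within it. Of the 7 hypoblast markers, whose sum of 208 CPM was the lowest, PDGFRA and COL4A1 lay below that range and the remaining 5 within it. Of the 6 inner cell mass markers in the table, POU5F1 and LIN28A lay above, KLF17 and SPIC below and the other 2 within. Its USP9Y, ZFY and DDX3Y, at 18.9, 7.32 and 31.9 CPM, were the lowest of the males. Its EIF1AY, at 17.6 CPM, was within the male range. The part of these differences in the results was not tested, and the fold changes of members that stood apart there are given with and without it.

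Of the 37 genes, 34 had enough counts to be tested between the sexes and none was called. A call required an adjusted p under 0.1 in edgeR's quasi-likelihood test and a fold change over 1.5, and over all 12802 genes tested 1.91% were called, 0.414% as higher in males and 1.5% as lower. Without adjustment, 1 of the 34 members had a p under 0.05 against 13.2% of all genes. No member was called by DESeq2 either, which called 655 of the 32637 genes in the table. That total includes genes without a count, while 23857 genes had at least 1. Of the 37 members there, 2 had an unadjusted p under 0.05. The share of all genes with such a p was not taken, so this count has no background beside it. The median log2 fold change of male over female was -0.02 over the members, with 16 above 0 and 18 below, and 0.01 over all genes. No member had all males above all females, which held for 1.43% of all genes, or all females above all males, which held for 1.88%.

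**Figure D1:**
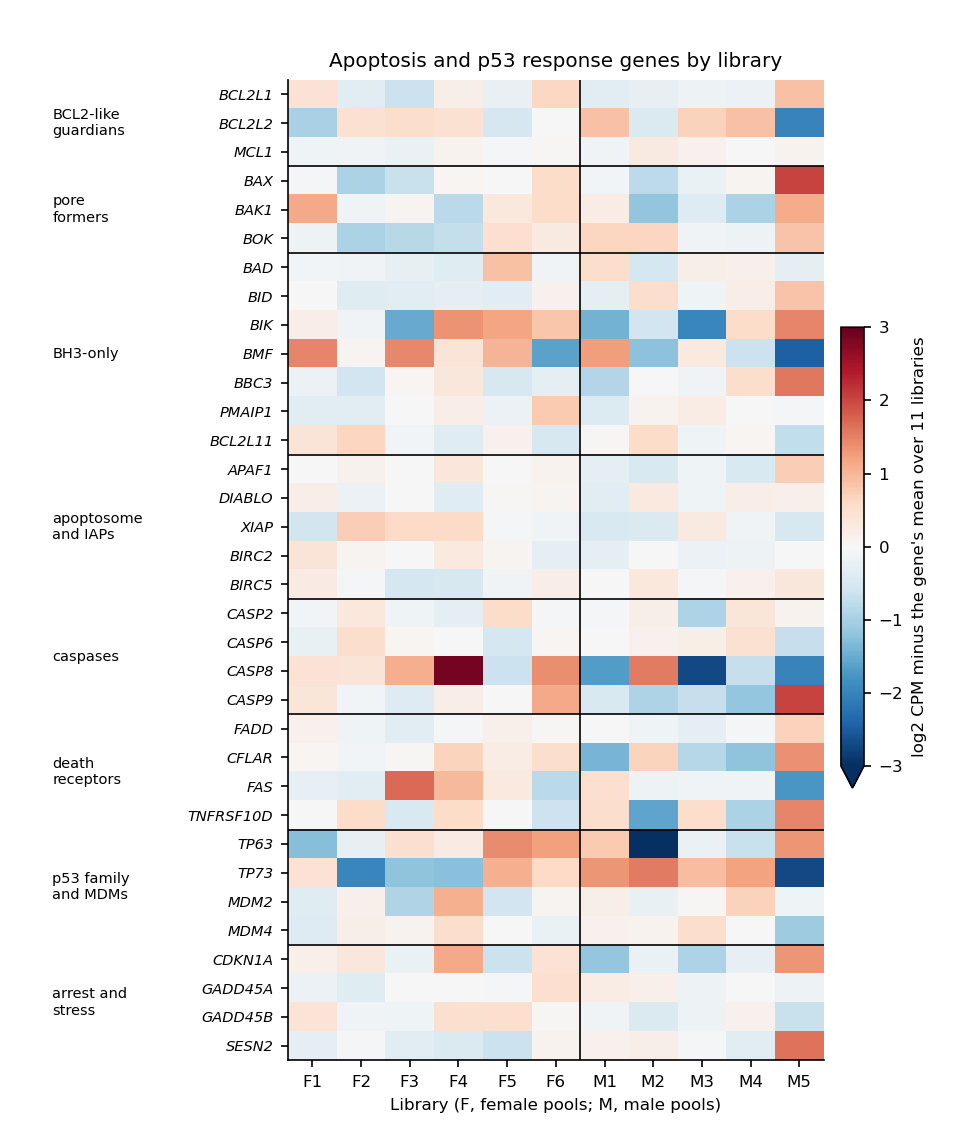
Level of the 34 tested members in each library, as log2 CPM minus the mean of that gene over the 11 libraries, for 6 female (F) and 5 male (M) pools. Rows are ordered by role, red is above and blue below the gene's mean, the scale ends at 3 in both directions and TP63 in male replicate 2 lies just below it. No row splits at the line between the sexes, and the strongest reds of BAX, CASP9 and SESN2 all sit in male replicate 5.

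The intervals of the differences show how large a sex difference these libraries leave room for. The 95% interval lay within 1.5-fold in both directions for 8 of the 34 members, MCL1, PMAIP1, DIABLO, BIRC5, CASP6, FADD, MDM4 and GADD45A, against 17.9% of all genes. It lay within 2-fold for 17 members, against 53.6% of all genes, which added BCL2L1, BAD, BID, BCL2L11, APAF1, XIAP, BIRC2, MDM2 and GADD45B. For the other 17 tested members, a 2-fold difference in at least one direction was within the interval. The biological coefficient of variation, the spread between pools beyond counting error, had a median of 0.357 in the members and 0.348 in all genes, and ran from 0.178 for MCL1 to 1.04 for CASP8.

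Among the guardians, which hold BAX and BAK1 in check, MCL1 had the least spread between pools of all members. MCL1, on chromosome 3 from 20129373 to 20134013, had the most counts of its class and measured 271 ± 21.6 CPM (SD, n = 6) over the female pools and 297 ± 29.6 CPM (SD, n = 5) over the male pools. The males read 260, 338, 307, 278 and 303 CPM in order of replicate number, and the females 244 CPM at the lowest, 266 at the median and 304 at the highest, so that the groups overlapped over most of their range. Male over female, the log2 fold change was 0.14 with a 95% interval from -0.14 to 0.42 (adjusted p = 0.695). BCL2L1, which encodes BCL-XL, measured 38.9 ± 13.0 CPM (SD, n = 6) over the female pools and 38.9 ± 16.3 CPM (SD, n = 5) over the male pools. Its highest male value, 67.9 CPM, was male replicate 5, and the other 4 males read between 28.96 and 33.4 CPM, inside the female range of 23.5 to 57.3 CPM. The fold change of BCL2L1 on the log2 scale was -0.07, and -0.28 without male replicate 5. BCL2L2, which encodes BCL-W, had only 166 counts in all libraries and overlaps PABPN1, which held 10020. Reads of BCL2L2 from the overlapping stretch may have been lost or shared. The founding member of the family, BCL2, had 2 counts in females and 0 in males (two-sided exact permutation test, p = 0.455, where the smallest p this design allows is 0.00216), and BCL2A1 had 0 counts in every library. With 0 counts, a level of up to 3 counts remains possible, which is 0.145 CPM in the deepest library and 0.413 CPM in the shallowest, and this limit covers counting error only.

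The pore formers open the outer mitochondrial membrane, and BOK among them had the smallest p of all members. BOK lies on chromosome 3 from 120646406 to 120658685. In males it read 23.6, 23.8, 14.0, 13.6 and 27.3 CPM, and in females 7.71 CPM at the lowest, 11.3 at the median and 21.4 at the highest. Female replicates 2, 3 and 4 lay below every male pool, female replicate 1 was level with the lowest male at 13.6 CPM, and the other 2 lay inside the male range. The means were 20.4 ± 6.27 CPM (SD, n = 5) over the male pools and 13.1 ± 5.73 CPM (SD, n = 6) over the female pools. The fold change on the log2 scale was 0.62 ± 0.27 (SE) with a 95% interval from 0.03 to 1.204. With edgeR the unadjusted p was 0.042 and the adjusted p 0.356. The highest pool was male replicate 5, and without it the log2 fold change was 0.57 (edgeR, unadjusted p = 0.078, adjusted p = 0.37). Within the libraries numbered 1, 2 and 3 the difference of mean log2 CPM was 1.199, 0.67 and -0.04, so that the last set showed none of it. This measure averages the log2 CPM of all pools of a set (prior count 2) and is not the fitted fold change. For every member these differences come from the same libraries as its p and are not separate support. Number 2 holds male replicate 3 as its only male pool. The smallest adjusted p that any member reached in any setting was that of BOK without male replicate 4, 0.163, with edgeR.

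For BAX and BAK1, male replicate 5 was the highest of the male pools. BAX, on chromosome 18 from 55530787 to 55534997, read 6.78, 4.12, 6.31 and 7.63 CPM in male replicates 1 to 4 and 30.3 CPM in male replicate 5. The females ran from 3.69 to 10.8 CPM. The log2 fold change of BAX was 0.44 with all libraries and -0.04 without male replicate 5. BAK1 read 14.3, 5.28, 9.33, 6.20 and 26.6 CPM in males and from 6.88 to 27.1 CPM in females. Its fold change on the log2 scale was -0.39, and -0.82 without male replicate 5 (edgeR, adjusted p = 0.309).

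The BH3-only members, the stress sensors of the pathway, had 7 of 8 genes tested, 3 above and 4 below 0, with a median log2 fold change of -0.04. BID, which caspase-8 cleaves to carry the death receptor signal to the mitochondria, had the next smallest p. It lies on chromosome 5 from 109133402 to 109154398 and read 29.1, 51.3, 32.6, 40.6 and 64.1 CPM in males. The females stayed between 27.5 and 39.0 CPM with a median of 28.9, so that 3 male pools exceeded every female pool and the other 2 fell within the female range. On the log2 scale the fold change of BID was 0.42 ± 0.21 (SE) with an interval from -0.04 to 0.87 (edgeR, adjusted p = 0.43). Within the library numbers the difference of mean log2 CPM was 0.31, 0.17 and 0.61. Without male replicate 5 the fitted log2 fold change was 0.28. PMAIP1, known as NOXA and the partner that neutralizes MCL1, had the most counts of the class. It measured 100 ± 33.1 CPM (SD, n = 6) over the female pools and 94.2 ± 14.9 CPM (SD, n = 5) over the male pools, and its log2 fold change was -0.04 with an interval from -0.47 to 0.39. The highest PMAIP1 value was 162 CPM in female replicate 6. The ratio of PMAIP1 to MCL1 counts lay between 0.285 and 0.567 in the female libraries and between 0.273 and 0.363 in the male ones.

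BIK, BMF and BBC3 were close to the limit of detection. BIK, on chromosome 5 from 113878004 to 113903956, had 141 counts over all libraries. It read 0.17, 0.42, 0.06, 1.11 and 2.23 CPM in males and 0.15 CPM at the lowest, 1.11 at the median and 2.06 at the highest in females, with full overlap. Male over female, the log2 fold change was -1.08 ± 0.80 (SE), with an interval from -2.82 to 0.67 (edgeR, adjusted p = 0.62). Without male replicate 5, the highest pool, it was -1.47. BMF had 135 counts and BBC3, the p53 target PUMA, 185 counts. BBC3 read 0.50, 1.06, 0.97 and 1.59 CPM in male replicates 1 to 4 and 3.44 CPM in male replicate 5, against 0.65 to 1.38 CPM in females. Its log2 fold change was 0.58, and 0.22 without male replicate 5. The last of the class, HRK, fell below the filter with 8 counts in females and 7 in males (two-sided exact permutation test, p = 0.838). BAD, which is held inactive by survival kinases, had a log2 fold change of 0.01, and BCL2L11, known as BIM, one of -0.11.

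Downstream of the mitochondrial pore, APAF1 forms the apoptosome, DIABLO releases the caspases from their inhibitors, and XIAP, BIRC2 and BIRC5 belong to the inhibitor of apoptosis family. XIAP, the direct inhibitor of effector caspases, is the X-linked member, at 8198240 to 8238233 on the X chromosome. It read 18.4, 18.6, 30.6, 23.4 and 17.9 CPM in males, and 17.3 CPM at the lowest, 31.2 at the median and 42.6 at the highest in females. The lowest pool of all was female replicate 1, and the 3 highest were female. The log2 fold change was -0.41 ± 0.23 (SE) with an interval from -0.92 to 0.09 (edgeR, adjusted p = 0.481). Within the library numbers the difference of mean log2 CPM was -0.55, -0.30 and -0.23. Of the 476 X-linked genes tested, 27.7% were called lower in males, their median log2 fold change was -0.85, and 82.8% of them had a fold change below that of XIAP.

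BIRC5, or survivin, serves in cell division as well as in survival and had the most counts of this class. It lies on chromosome 19 from 53940674 to 53947960 and read 252, 311, 242, 275 and 317 CPM in males. In females it was 174 CPM at the lowest, 238 at the median and 298 at the highest. As a log2 fold change the difference in BIRC5 was 0.20 ± 0.14 (SE) with an interval from -0.09 to 0.50 (edgeR, adjusted p = 0.569). DIABLO measured 115 ± 15.3 CPM (SD, n = 6) over the female pools and 122 ± 20.4 CPM (SD, n = 5) over the male pools, a log2 fold change of 0.06 with an interval from -0.28 to 0.39. The ratio of DIABLO to XIAP counts lay between 2.41 and 7.73 in the female libraries and between 3.51 and 7.71 in the male ones. APAF1 read 10.3, 8.88, 11.2, 8.90 and 20.7 CPM in males and from 12.2 to 15.5 CPM in females. Of the male pools only male replicate 5 exceeded any female pool for APAF1, and without it the log2 fold change went from -0.16 to -0.42 (edgeR, adjusted p = 0.283).

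The caspase class held the executioner CASP6, with the most counts of its class, and the initiators CASP2, CASP8 and CASP9. CASP6, on chromosome 6 from 15694142 to 15714982, read 264, 291, 301, 362 and 164 CPM in males and from 185 to 384 CPM in females. On the log2 scale the fold change of CASP6 was 0.05 with an interval from -0.42 to 0.53. CASP8, which starts the death receptor route, had the largest fitted fold change of the members and the widest interval. It read 0.17, 2.85, 0, 0.48 and 0.10 CPM in males and 0.50, 1.63 and 7.29 CPM as the lowest, median and highest of the females. The log2 fold change was -1.87 ± 1.196 (SE) with an interval from -4.47 to 0.74 (edgeR, adjusted p = 0.553), and it ranged from -0.998 without male replicate 3 to -3.44 without male replicate 2 when 1 library was left out. CASP8 lies on chromosome 2 from 89861821 to 89885546, held 190 counts in all, and overlaps FLACC1, which held 35607. Whether the counting used strand was not given in the sources used here, so reads from the overlapping stretch may have been lost or shared.

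CASP9, the initiator that the apoptosome activates, had 1 male library far above the other males. It lies on chromosome 16 from 52000661 to 52023460 and read 2.81, 2.01, 2.38 and 1.67 CPM in male replicates 1 to 4 but 16.5 CPM in male replicate 5. The females ran from 2.98 to 8.81 CPM, so that 4 male pools were below every female pool and the last was above every one. The fold change on the log2 scale of CASP9 was -0.28 with all libraries and -1.08 without male replicate 5, and the latter did not pass the test (edgeR, adjusted p = 0.187). With all libraries, the difference of mean log2 CPM within the library numbers was -0.83, -0.60 and -0.15. In number 3, which holds both, male replicate 4 read below and male replicate 5 above every female pool.

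In the death receptor class, FADD, the adaptor that links receptors to caspase-8, had the most counts. FADD, on chromosome 29 from 47373324 to 47375728, read 45.01, 41.3, 36.9, 43.3 and 73.7 CPM in males and from 35.7 to 50.5 CPM in females. As a log2 fold change the difference in FADD was 0.04 with an interval from -0.35 to 0.43, and -0.12 without male replicate 5. CFLAR, which encodes the FADD-bound inhibitor c-FLIP, read 0.74, 3.59, 1.16, 0.87 and 5.91 CPM in males and from 2.06 to 3.58 CPM in females. Its log2 fold change was -0.21, and -0.84 without male replicate 5. The receptor FAS peaked in female replicate 3 at 23.1 CPM and was lowest in male replicate 5 at 1.99 CPM. Its log2 fold change was -0.37 with an interval from -1.31 to 0.57, and -0.14 without male replicate 5. TNFRSF10D is annotated on an unplaced scaffold and belongs to a family of similar receptors, so its counts are uncertain. It read 18.6, 4.23, 18.8, 6.59 and 35.8 CPM in males and from 8.37 to 19.1 CPM in females. Its log2 fold change of 0.31 turned to -0.25 without male replicate 5.

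Of the p53 family and its regulators, MDM2, the ubiquitin ligase of p53 and itself a p53 target, had the most counts. MDM2, on chromosome 5 from 44977671 to 45005325, read 83.2, 63.2, 76.3, 119 and 67.4 CPM in males and 39.7 CPM at the lowest, 67.8 at the median and 154 at the highest in females. Its log2 fold change was 0.15 with an interval from -0.56 to 0.86. MDM4, the partner of MDM2, measured 51.7 ± 11.5 CPM (SD, n = 6) over the female pools and 50.3 ± 17.3 CPM (SD, n = 5) over the male pools. TP73 read 2.40, 2.85, 1.80 and 2.22 CPM in male replicates 1 to 4 and had 0 counts in male replicate 5. The females ran from 0.11 to 2.00 CPM. The log2 fold change of TP73 was 1.16 with an interval from -0.91 to 3.22, and 1.68 without male replicate 5 (edgeR, adjusted p = 0.187). TP73 held 177 counts in all and overlaps WRAP73, with 661. TP63, best known from epithelia, varied widely within both sexes, between 1.14 and 8.31 CPM in females and between 0.21 and 7.75 CPM in males.

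The arrest and stress genes carry out the p53 response short of death. GADD45A, a sensor of DNA damage with the most counts of its class, lies on chromosome 3 from 77648759 to 77651847 and measured 49.1 ± 10.6 CPM (SD, n = 6) over the female pools and 49.8 ± 6.005 CPM (SD, n = 5) over the male pools. Its 95% interval ran from -0.38 to 0.41 on the log2 scale. The related GADD45B, on chromosome 7 from 21118048 to 21120156, had the smallest p of the members with lower male means. It read 14.8, 11.7, 14.3, 17.3 and 9.98 CPM in males and 14.5 CPM at the lowest, 18.7 at the median and 22.7 at the highest in females. In 3 female pools the value lay above every male pool, and the other 3 lay among the males. Male over female, the log2 fold change of GADD45B was -0.44 ± 0.23 (SE) with an interval from -0.94 to 0.05 (edgeR, adjusted p = 0.441). Within the library numbers the difference of mean log2 CPM was -0.41, -0.33 and -0.54. Male replicate 5 was the lowest pool, and without it the fitted log2 fold change was -0.33.

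SESN2, an inhibitor of mTORC1 signaling that p53 and amino acid stress induce, lies on chromosome 2 from 125114002 to 125131744. It read 13.2, 13.7, 11.8, 9.61 and 37.4 CPM in males and 7.70 CPM at the lowest, 9.78 at the median and 13.1 at the highest in females. The fold change on the log2 scale was 0.65 ± 0.34 (SE) with an interval from -0.09 to 1.38 (edgeR, adjusted p = 0.443), and it came to 0.20 without male replicate 5. CDKN1A, the p21 inhibitor of the cell cycle and a standard readout of p53 activity, read 4.05, 8.03, 4.83, 7.87 and 23.5 CPM in males and from 5.90 to 20.5 CPM in females. Its log2 fold change was -0.40, or -0.86 without male replicate 5 (edgeR, adjusted p = 0.28). Within library numbers 1 and 2 the difference in CDKN1A was -0.93 and -1.39, and within number 3, which holds male replicate 5, it was 0.64.

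**Figure D2:**
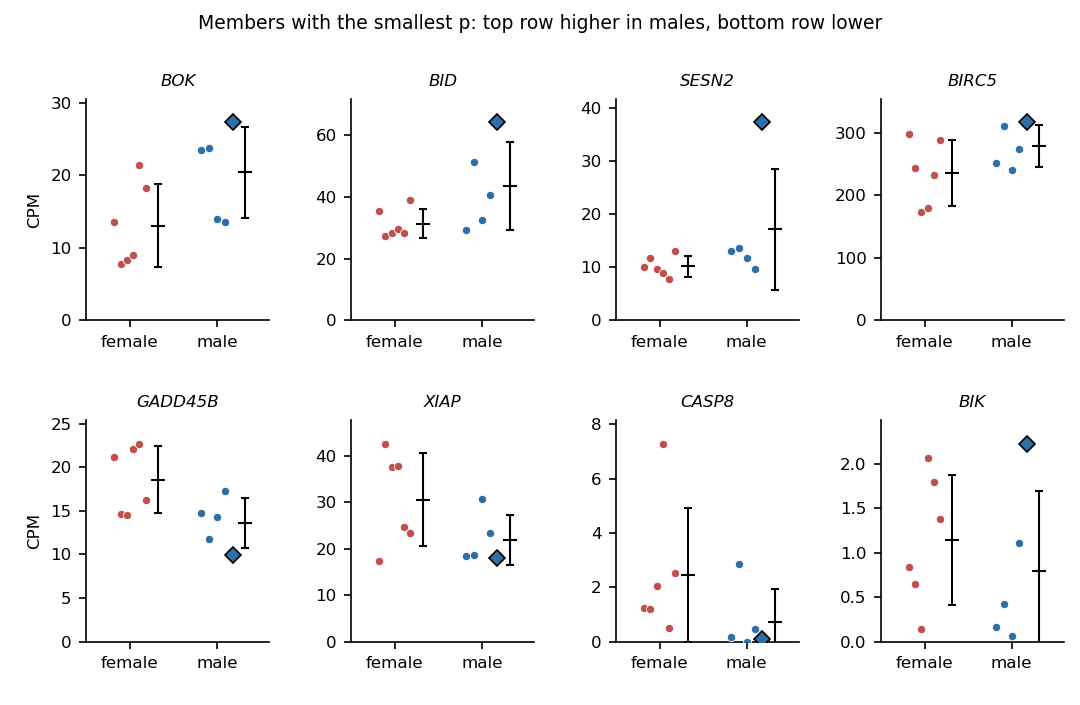
CPM of the 4 members with the smallest p on each side, by sex, with 1 point per pool, male replicate 5 as an outlined diamond, and the mean with 1 SD as a bar that is cut at 0. Every panel shows pools of both sexes at shared levels, from BOK (females 7.71 to 21.4, males 13.6 to 27.3) to BIK (females 0.15 to 2.06, males 0.06 to 2.23).

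**Figure D3:**
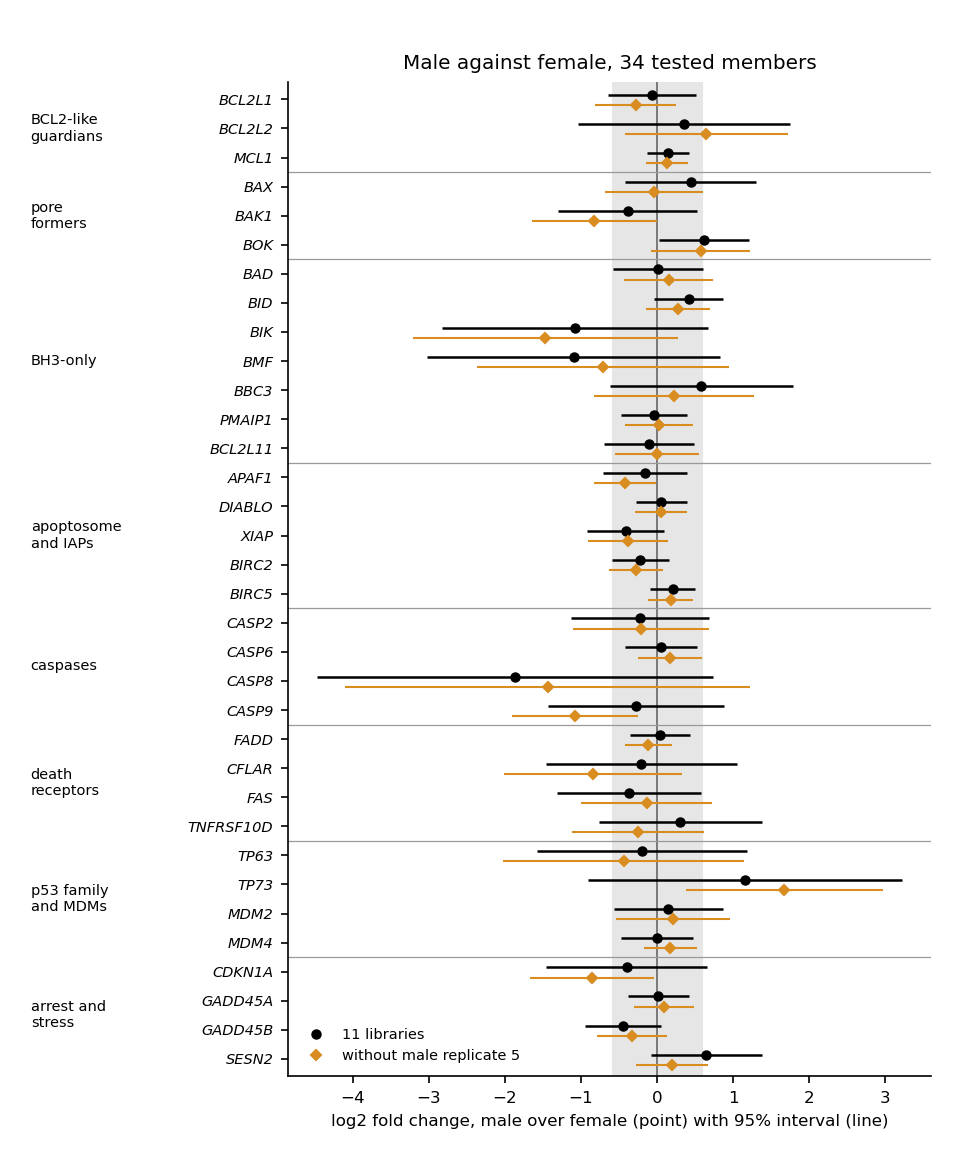
Log2 fold change of male over female with its 95% interval for the 34 tested members, with all 11 libraries in black and without male replicate 5 in orange, over a grey band of 1.5-fold in both directions. No member was called in either fit, MCL1 has one of the narrow intervals (-0.14 to 0.42) and CASP8 the widest (-4.47 to 0.74), and CASP9 moves from -0.28 to -1.08 when the library is left out.

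Several members stood apart in male replicate 5. This library held the highest of the 11 values for 14 of the 34 members, where 24.9% of all genes had their highest value there. It held the lowest for 8 members, against 26.8% of all genes. Of 115 other tested genes of cell death and the p53 pathway, described below, 32 had their highest value there and 22 their lowest. Genes that restrain and genes that promote apoptosis were both among the 14. The guardian BCL2L1 and the inhibitors CFLAR and BIRC5 stood beside the pore formers BAX and BOK, the BH3-only genes BID, BIK and BBC3, and the activators APAF1, CASP9 and FADD. The receptor TNFRSF10D and the p53 targets CDKN1A and SESN2, not sorted to a side here, made up the rest. The 8 lowest were BCL2L2, BMF, BCL2L11, CASP6, FAS, TP73, MDM4 and GADD45B. For 6 members, BAX, BBC3, CASP9, CFLAR, TNFRSF10D and SESN2, male replicate 5 was over 1.5-fold above each of the other 10 libraries. The same held for 9.35% of all genes and for 15 of the 115 other pathway genes.

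The size of the gap was largest for BAX, at 2.81 times the next highest library, and for SESN2, at 2.72 times. BBC3 was at 2.17 times, CASP9 and TNFRSF10D were both at 1.87 times, and CFLAR was at 1.65 times. The ratio of BAX to BCL2L1 counts was 0.446 in male replicate 5 and between 0.125 and 0.234 in the other 10 libraries. The high values came with the KRT8, KRT18, CDX2 and DAB2 levels of that library and with its fewer genes with a count, while the other 6 trophectoderm markers were within the range of the other libraries, and the part of these differences in the result was not tested. Without male replicate 5 no member was called, against 2.81% of all genes, and 4 members had an unadjusted p under 0.05, CASP9, TP73, CDKN1A and APAF1, against 16.2% of all genes. The 95% interval then lay within 1.5-fold for 8 members, against 22% of all genes.

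**Figure D4:**
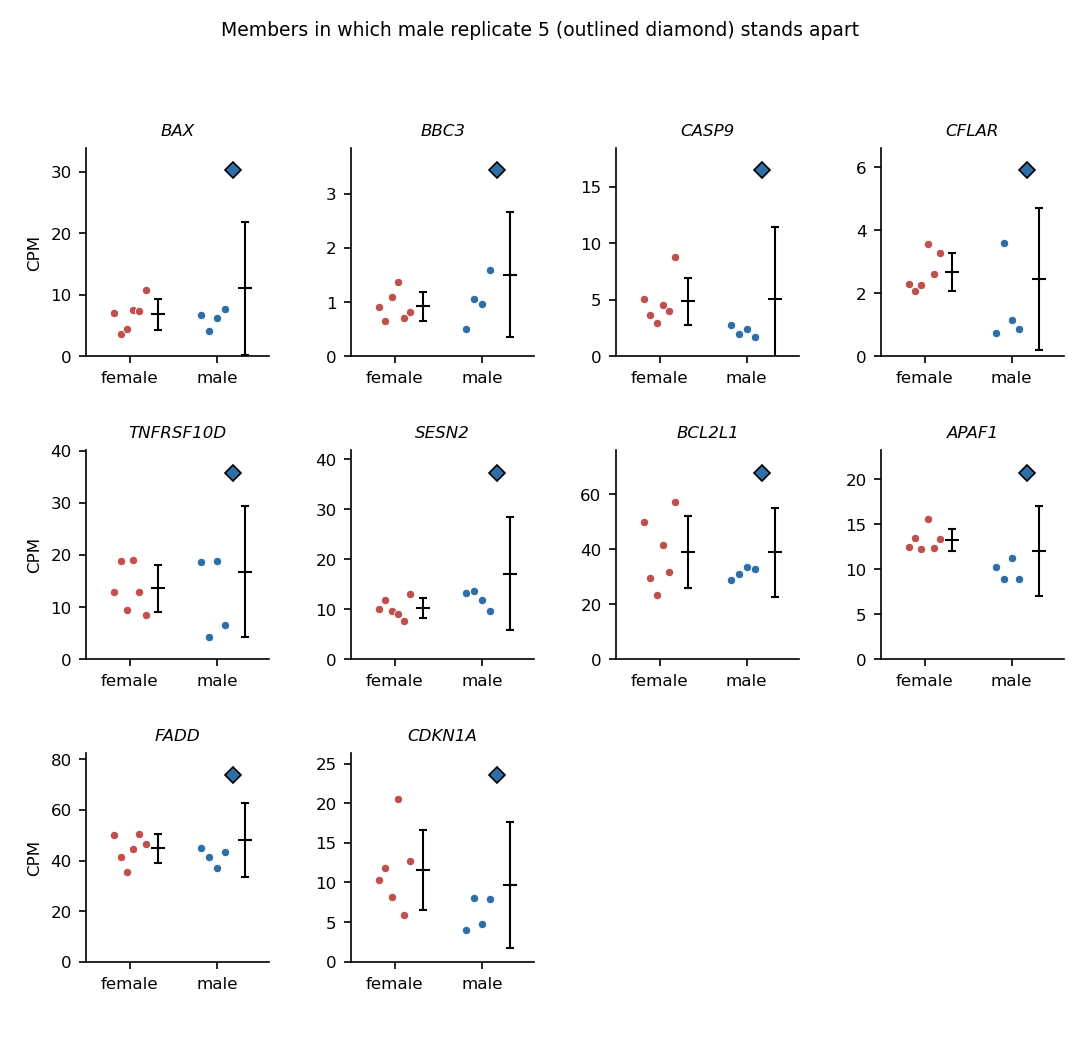
CPM of 10 members by sex, with 1 point per pool, the mean with 1 SD as a bar that is cut at 0, and male replicate 5 as an outlined diamond. The members were chosen because male replicate 5 was over 1.5-fold above every other library or was flagged as the highest male by Dixon's test. Its high position in the panels therefore follows largely from the choice. The diamond is the highest point of every panel, at 30.3 CPM for BAX against 3.69 to 10.8 CPM in the other 10 libraries, and the remaining males lie below the female range for APAF1 and CASP9.

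Other genes of cell death and the p53 pathway were read from a list of 137, of which 135 were in the table and 115 were tested. None was called by edgeR, 16 had an unadjusted p under 0.05, 11 higher and 5 lower in males, and DESeq2 called 2. The 16 made up 13.9% of the pathway genes tested, close to the 13.2% of all genes, and the counts by group below are read against that share. Their median log2 fold change was 0.02. Of the 23 tested mitochondrial genes, 4 had an unadjusted p under 0.05 on the male side and 1 on the female side. Of the 37 tested p53 targets, 3 did on each side. The 25 regulators of p53 held 2 and 1, the 10 death receptor genes 1 and 0, the 11 stress response genes 1 and 0, and the 9 caspase and inhibitor genes 0 and 0.

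VDAC2, the channel of the outer mitochondrial membrane that keeps BAK inactive, had the smallest p of the pathway genes. It measured 1259 ± 144 CPM (SD, n = 5) over the male pools and 871 ± 110 CPM (SD, n = 6) over the female pools, from 1079 to 1426 CPM against 715 to 982 CPM, with no overlap. The log2 fold change was 0.52 ± 0.14 (SE) with an interval from 0.22 to 0.82 (edgeR, adjusted p = 0.111). With DESeq2 the adjusted p was 0.0506, and the fold change stayed under 1.5. CDK4, the kinase of the G1 phase that CDKN1A restrains, had a log2 fold change of 0.51 (edgeR, adjusted p = 0.237), with an interval from 0.12 to 0.89. It measured 97.1 ± 34.6 CPM (SD, n = 5) over the male pools, from 74.4 to 158 CPM, and 65.1 ± 7.93 CPM (SD, n = 6) over the female pools, from 51.6 to 75.9 CPM. The highest value of CDK4 was male replicate 5, and without it the log2 fold change was 0.33. On the other side, BTG2, a p53 target that slows proliferation, measured 7.50 ± 3.11 CPM (SD, n = 5) over the male pools and 16.9 ± 8.79 CPM (SD, n = 6) over the female pools, a log2 fold change of -1.22 (edgeR, adjusted p = 0.221) with an interval from -2.11 to -0.32. The males of BTG2 ran from 4.70 to 12.2 CPM and the females from 7.41 to 29.01 CPM. BTG2 was called by DESeq2, at -1.21 (adjusted p = 0.0602), and by edgeR with every gene that had a count (adjusted p = 0.00998). HIPK2, a kinase that phosphorylates p53, had a log2 fold change of -0.71 (edgeR, adjusted p = 0.241) with an interval from -1.25 to -0.16. It measured 6.29 ± 1.17 CPM (SD, n = 5) over the male pools, from 4.93 to 8.14 CPM, and 10.7 ± 2.48 CPM (SD, n = 6) over the female pools, from 8.01 to 15.1 CPM. Without male replicate 5 HIPK2 was called, at -0.85 (edgeR, adjusted p = 0.0963). The libraries of the sexes did not overlap for 4 pathway genes, VDAC2 and USP10 with males above and BAG4 and XPC with females above. These 2 of 115 on each side stand beside 1.43% of all genes with males above and 1.88% with females above, so that the count is near the background.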

How the data were processed

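Per the labels and the study's methods, the authors trimmed reads with fastp 0.20.0, aligned them to ARS-UCD2.0 with STAR 2.7.10b, counted them per gene with featureCounts and deposited raw gene counts, without normalization. Isoforms are merged, and whether counting used strand is not given in the sources used here. All 11 libraries were used. The Iso-seq sample was not used.

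Counts were filtered with filterByExpr by sex (12802 genes left), scaled with TMM and tested with edgeR 4.0.16 (R 4.3.3) by the quasi-likelihood test, male against female, with the library number (first number of the library name) as a block in place of the collection week, and Benjamini-Hochberg adjustment over all genes. Intervals of 95% used edgeR's total degrees of freedom. Members below the filter were compared by an exact permutation test over 462 splits. Alternatives were DESeq2 1.42.0, RLE factors, autosomal TMM factors, other filters, thresholds and blocks, glmTreat and leaving out each library. The fits were tested on simulated data. The members and lists were chosen with earlier results of these data known. Members given in full are, by rule, the 4 with the smallest p on each side, the X-linked one and that with the most counts per class; others are named for their role or, with male replicate 5, after their values were seen. Of pathway genes, the 4 of smallest p are given in full, with those without overlap and any called elsewhere named. A pool is a replicate; p-values measure the spread between pools.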

Additional observations from a re-analysis of the deposited data

Results flagged for a closer look

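Within each sex, single libraries lay far from the others by Dixon's test in 12 of 68 groups of member values, in 10 genes. Chance gives about 1 such flag in 20 groups only if values are normally distributed. Whether these CPM values are was not tested, so the 12 flags cannot be read against that rate. All 12 flags were highest values on the CPM scale, and the share of flags over all genes was not taken. Male replicate 5 held 7 of the 12 flags as the highest male, BCL2L1 at 67.9 CPM, BAX at 30.3 CPM, APAF1 at 20.7 CPM, CASP9 at 16.5 CPM, FADD at 73.7 CPM, CDKN1A at 23.5 CPM and SESN2 at 37.4 CPM. These 7 values share a library and are not independent, and 24.9% of all genes had their highest value there. CASP8 stood out in female replicate 4 at 7.29 CPM and in male replicate 2 at 2.85 CPM. Female replicate 6 was the highest female for CASP9 at 8.81 CPM and for GADD45A at 69.1 CPM, and female replicate 5 for BAD at 30.2 CPM. The causes were not tested.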

How the results depend on the processing

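No member was called under any alternative. Over all genes the number called was 245, and it became 132 with the number in the sample title as the block, 655 with DESeq2, 743 with every gene that had a count, 125 at an FDR of 0.05, 62 with glmTreat and 95 to 364 when 1 library was left out, the lowest without male replicate 3 and the highest without male replicate 5. The count fell by more than 1.5 times without female replicate 2 (105), 4 (131), 5 (110) or 6 (148) and without male replicate 1 (156), 2 (114) or 3 (95). Without a replicate block, 326 genes and no member were called. Pools with the same library number deviated together with correlations of 0.0124, 0.369 and 0.197, so the numbers were not shown to pair the pools. Pathway genes called went from 0 to 2 with DESeq2 (THBS1 and BTG2), to 5 with every gene that had a count (SFN, THBS1, BTG2, DAP and AIFM2), and to between 0 and 1 without 1 library (HIPK2 without male replicate 5).

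Direction turned for the members named next. The log2 fold change became 0.000208 for BCL2L1 and 0.074 for CASP9 without the block, and 0.11 for BCL2L1, -0.017 for BCL2L2, 0.10 for PMAIP1 and -0.075 for TNFRSF10D with the title number as the block. With autosomal TMM factors it was -0.012 for BAD and -0.0055 for GADD45A. For MDM4 it was 0.0041 with DESeq2, 0.0034 with RLE factors and 0.0063 with every gene that had a count. Without 1 library it ranged from -0.19 to 0.25 for BAD, -0.037 to 0.66 for BAX, -0.28 to 0.10 for BCL2L1, -0.21 to 0.65 for BCL2L2, -0.16 to 0.20 for CASP6, -0.84 to 0.10 for CFLAR, -0.026 to 0.14 for DIABLO, -0.12 to 0.10 for FADD, -0.078 to 0.14 for GADD45A, -0.057 to 0.43 for MDM2, -0.12 to 0.18 for MDM4, -0.15 to 0.15 for PMAIP1, -0.25 to 0.62 for TNFRSF10D and -1.05 to 0.081 for TP63. The cause was not tested. The low counts of CASP8, BIK, BMF, BBC3, BCL2L2 and TP73 limit what their wide intervals can show.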
